A study of Mus musculus with 8 samples.

Results

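The genes described here are 10 lysosomal proteases, namely the cathepsins Ctsa, Ctsb, Ctsc, Ctsd, Ctsh, Ctsk, Ctsl, Ctss and Ctsz and the asparaginyl endopeptidase legumain (Lgmn). They were taken by name from a table of 40838 genes, and all 10 were found in it and passed the filter on low counts. Sequenced RNA of whole liver, in 8 libraries, came from C57BL/6 mice, an inbred laboratory strain, after 16 weeks on a diet that causes nonalcoholic steatohepatitis (NASH). After 7 of those weeks the mice had received an adeno-associated virus (AAV), and the diet went on for 9 weeks more. For 4 libraries, called Lpcat3 livers here, the virus carried Lpcat3, and for the 4 control libraries, called eGFP livers, it carried enhanced green fluorescent protein (eGFP). Both viruses used the TBG promoter, which is active in hepatocytes, so the delivered gene is aimed at hepatocytes while the RNA comes from every cell of the liver. Lpcat3 encodes lysophosphatidylcholine acyltransferase 3, which places polyunsaturated fatty acids into membrane phospholipids. The sources used here state no age or sex. The genes lie on chromosomes 2 (Ctsa, Ctsz), 3 (Ctsk, Ctss), 7 (Ctsc, Ctsd), 9 (Ctsh), 12 (Lgmn), 13 (Ctsl) and 14 (Ctsb).

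Cathepsins are made as inactive precursors, tagged with mannose 6-phosphate, delivered to the acidic endosome and lysosome, and activated there by cleavage. Most are cysteine proteases of the papain type, Ctsd is an aspartic protease and Ctsa a serine carboxypeptidase, and legumain cuts after asparagine and trims several cathepsins to their mature chains. In liver, Ctsb, Ctsd and Ctsl are broadly expressed, while Ctss is typical of macrophages and other antigen-presenting cells.

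Library totals ran from 22433625 to 25651874 counts. Lpcat3 was at 274, 401, 465 and 311 CPM (counts scaled to library size by TMM) in the Lpcat3 livers, against 158, 148, 133 and 173 CPM in the eGFP livers. The groups did not overlap, although the gene did not pass edgeR's quasi-likelihood test across 17438 genes (log2 fold change 1.25, SE 0.17; adjusted p = 0.164). All 10 hepatocyte markers were measured, summing to 76900.3 to 109760 CPM in Lpcat3 livers and 64173 to 95089 CPM in eGFP livers. The library codes carry the numbers 1290, 1317, 1344 and 1345, whose meaning is not given. Codes 1290 and 1317 hold Lpcat3 replicate 1 and eGFP replicates 1, 2 and 3, and codes 1344 and 1345 hold the other 4 libraries. The labels do not say that the libraries came from separate animals, so p-values measure the spread between these libraries.

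Of the 10 proteases, 8 had a lower and 2 a higher mean level in the Lpcat3 livers, and the median log2 fold change was -0.19. Over all genes 51.5% had a negative fold change and the median was -0.01. None of the 10 passed edgeR's test (0 called, adjusted p = 0.564 to 0.839), where 0.00573% of all genes were called in either direction, 0.00573% higher and 0% lower. At an unadjusted p under 0.05 there were 3, all lower (Ctsc, Lgmn and Ctss), against 5.18% of all genes lower and 3.30% higher at that level. The groups did not overlap for 1 of the 10 (Ctsc), and 2.24% of all genes were lower without overlap and 1.93% higher. Because these are whole livers, fewer cells of a type and less RNA per cell cannot be told apart.

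Ctsc, dipeptidyl peptidase I, removes dipeptides from protein ends and is best known for activating the granule proteases of neutrophils and cytotoxic lymphocytes. Ctsc was at 98.0, 64.2, 101 and 66.2 CPM in the Lpcat3 livers, against 147, 119.5, 141 and 119 CPM in the eGFP livers. Every Lpcat3 library lay below every eGFP library. The means were 82.3 ± 19.8 CPM in Lpcat3 livers and 132 ± 14.5 CPM in eGFP livers (SD, n = 4 each). On the log2 scale the difference was -0.68, with an SE of 0.16 and, in edgeR, an unadjusted p of 0.00234 and an adjusted p of 0.564. By unadjusted p, Ctsc ranked 59 among all genes. DESeq2, another count test, gave Ctsc an adjusted p of 0.0495, where it called 0.135% of genes lower and 0.164% higher, and with its own filtering set for a threshold of 0.1 the value was 0.0505. Within codes 1290 and 1317 the log2 difference was -0.47, and within codes 1344 and 1345 it was -0.66.

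Ctss, a cysteine protease that cuts the invariant chain of MHC class II in antigen-presenting cells, was at 75.5, 59.1, 40.3 and 56.2 CPM in the Lpcat3 livers, against 115, 70.3, 108 and 63.9 CPM in the eGFP livers. Lpcat3 replicates 2, 3 and 4 lay below every eGFP library, eGFP replicates 1 and 3 lay above every Lpcat3 library, and Lpcat3 replicate 1 lay above the other eGFP livers. The means were 57.8 ± 14.4 CPM in Lpcat3 livers and 89.2 ± 25.8 CPM in eGFP livers (SD, n = 4 each). Its difference was -0.63 on the log2 scale, SE 0.23, and edgeR gave an unadjusted p of 0.0249 and an adjusted p of 0.573. It was -0.34 within codes 1290 and 1317 and -0.32 within codes 1344 and 1345.

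Lgmn was at 84.8, 68.0, 53.6 and 57.0 CPM in the Lpcat3 livers, against 111, 73.9, 122 and 76.2 CPM in the eGFP livers. As with Ctss, eGFP replicates 1 and 3 stood above all other libraries, and eGFP replicates 2 and 4 lay below Lpcat3 replicate 1. The means were 65.9 ± 14.1 CPM in Lpcat3 livers and 95.8 ± 24.4 CPM in eGFP livers (SD, n = 4 each). The log2 difference was -0.54, SE 0.20, and edgeR gave an unadjusted p of 0.0240 and an adjusted p of 0.570. Within codes 1290 and 1317 the log2 difference was -0.24, and within codes 1344 and 1345 it was -0.36.

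**Figure D1:**
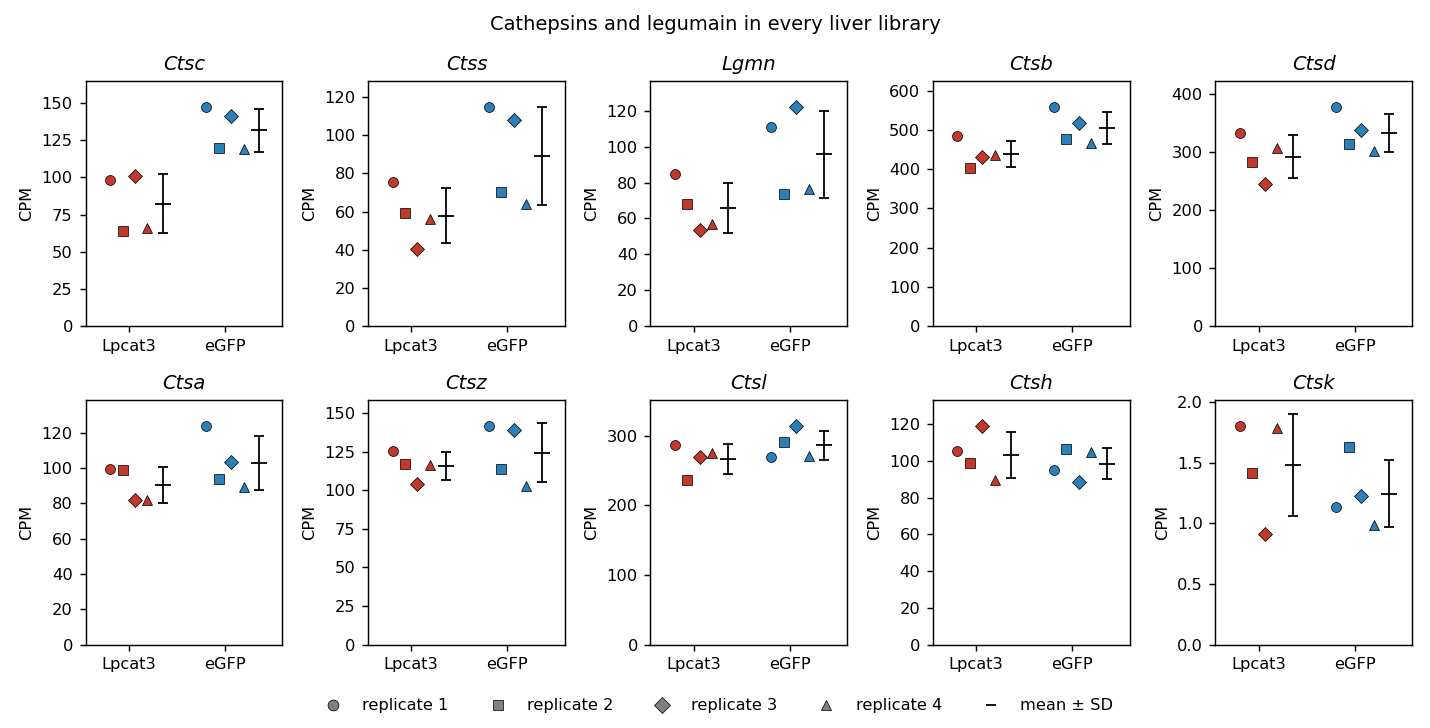
Level of each protease gene in CPM (vertical axis, from 0) in the 4 Lpcat3 libraries and the 4 eGFP libraries, with the replicate as the marker shape and the mean ± SD beside each group. For Ctsc all 4 Lpcat3 libraries lie below the eGFP libraries, while the groups of the other 9 genes overlap.

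Ctsb, an abundant lysosomal cysteine protease with endopeptidase and dipeptide-releasing activity, was at 484, 403, 429.9 and 436 CPM in the Lpcat3 livers, against 558, 478, 517 and 467 CPM in the eGFP livers. Lpcat3 replicate 1 lay within the eGFP range and the other 3 Lpcat3 libraries below it. The log2 fold change was -0.20 (SE 0.09; edgeR adjusted p = 0.590, unadjusted p = 0.0514). In the GENCODE M21 annotation, which is not the NCBI gene set of the counts, 774 bases of Ctsb exons lie opposite Fdft1. The sources used here do not say whether counting used strand.

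Ctsd, the main aspartic protease of lysosomes, was at 333, 283, 245 and 308 CPM in the Lpcat3 livers, against 378, 314, 338 and 303 CPM in the eGFP livers. Here 2 Lpcat3 libraries lay below every eGFP library and the other two among them. The log2 fold change was -0.19 (SE 0.11; edgeR adjusted p = 0.644). It was -0.11 without Lpcat3 replicate 3 and -0.12 without eGFP replicate 1. In GENCODE M21, 670 of the 2127 exon bases of Ctsd are shared with Gm49369 on the same strand. Whether this overlap affected the Ctsd counts was not tested. Ctsa, which besides its peptidase activity protects the sialidase Neu1 and the galactosidase Glb1, was at 99.3, 98.9, 81.7 and 81.7 CPM in Lpcat3 livers, against 124, 93.8, 104 and 89.4 CPM in eGFP livers (log2 fold change -0.18, SE 0.12; edgeR adjusted p = 0.659). Its exons share 495 bases with Pltp and 324 with Neurl2 on the opposite strand.

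Ctsz, a carboxypeptidase also called cathepsin X, was at 125, 117, 104 and 116 CPM in the Lpcat3 livers, against 142, 114, 139 and 103 CPM in the eGFP livers. Its highest and its lowest library were both eGFP libraries. The log2 fold change was -0.11 (SE 0.11; edgeR adjusted p = 0.773), with -0.06 within codes 1290 and 1317 and 0.12 within codes 1344 and 1345. Ctsl, an endopeptidase of the papain type, was at 287, 236, 269.7 and 276 CPM in the Lpcat3 livers, against 269, 291, 314 and 271 CPM in the eGFP livers, largely the same range (log2 fold change -0.10, SE 0.09; edgeR adjusted p = 0.717). Its exons in GENCODE M21 overlap the predicted genes Gm47123 and Gm49230.

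The 2 genes with a higher mean were Ctsh and Ctsk. Ctsh, an aminopeptidase, was at 105, 98.9, 119 and 89.5 CPM in the Lpcat3 livers, against 94.8, 106, 88.5 and 105 CPM in the eGFP livers. The groups overlapped, and the log2 fold change was 0.07 (SE 0.10; edgeR adjusted p = 0.839), which turned to -0.05 with library totals as the scaling. Ctsk, a collagen-degrading protease known from osteoclasts, had only 19 to 45 counts per library. It was at 1.81, 1.41, 0.911 and 1.79 CPM in the Lpcat3 livers, against 1.14, 1.63, 1.23 and 0.991 CPM in the eGFP livers (log2 fold change 0.25, SE 0.26; edgeR adjusted p = 0.769). Lpcat3 replicate 3 held the lowest Ctsk level of all 8 libraries.

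**Figure D2:**
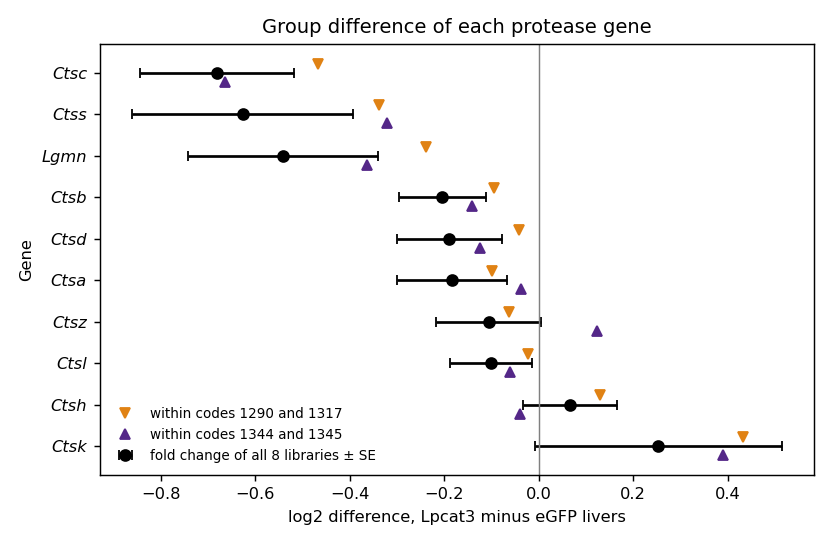
Log2 difference between Lpcat3 and eGFP livers for each protease gene (horizontal axis), as the edgeR estimate over all 8 libraries with its SE and as the difference of means within each pair of code numbers. Ctsc, Ctss and Lgmn lie farthest to the left, at -0.68, -0.63 and -0.54, and 7 of the 10 genes were lower within both pairs of codes.

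The code numbers are divided unevenly between the groups. Code 1317 holds no Lpcat3 library and code 1344 no eGFP library, while codes 1290 and 1345 hold both groups. The codes were compared in merged pairs, each with a single library on one side. Code 1317 adds only eGFP and code 1344 only Lpcat3 to its pair, so differences between codes can enter these comparisons. In codes 1290 and 1317, where Lpcat3 replicate 1 is the single Lpcat3 library, 8 of the 10 genes were lower in the Lpcat3 liver, beside 51.5% of all genes. In codes 1344 and 1345, where eGFP replicate 4 is the single eGFP library, 8 were lower, beside 51.8% of all genes. In both merged pairs 7 were lower, beside 28.0% of all genes. Within code 1345 alone, Ctsd (308 against 303 CPM) and Ctsl (276 against 271 CPM) were higher in the Lpcat3 library. The rest of the 7, Ctsa, Ctsb, Ctsc, Ctss and Lgmn, were lower there. Within code 1290 alone, Ctsc lay below both eGFP libraries, and the rest of the 7 lay between them. For Ctsa, Ctsb, Ctsc, Ctsd, Ctsl, Ctss and Lgmn the differences in both merged pairs were smaller in size than the fold change over all libraries. In edgeR fits with a term for the division of the codes, the log2 fold change was -0.55 for Ctsc, -0.34 for Ctss, -0.31 for Lgmn and -0.08 for Ctsd. With a term for every code number, the difference rests only on codes 1290 and 1345, which hold both groups. In that fit the log2 fold change was -0.62 for Ctsc, -0.25 for Ctss, -0.25 for Lgmn and -0.02 for Ctsd. In size, Ctsc thus kept most of its difference under both, and Ctss, Lgmn and Ctsd were nearer to 0. Neither fit called any gene, and the edgeR adjusted p of Ctsc was 0.99997 with the code division and 0.999828 with every code number.

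The 8 libraries differed from each other most in Ctss, Lgmn and Ctsc. The highest library was 2.85 times the lowest for Ctss, 2.29 times for Ctsc and 2.28 times for Lgmn, with coefficients of variation over the 8 libraries of 34.9%, 28.9% and 30.2%. The low-count gene Ctsk had 25.8%. The other 6 genes were narrower, from 8.09% for Ctsl to 14.2% for Ctsa. Among the eGFP livers alone the coefficient was 28.9% for Ctss and 25.5% for Lgmn but 11.01% for Ctsc. Among the Lpcat3 livers it was 24.96% for Ctss, 21.3% for Lgmn and 24.0% for Ctsc.

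A few libraries held most of the extremes. Lpcat3 replicate 3 had the lowest level of 5 of the 10 genes and Lpcat3 replicate 2 of 3 genes. Among eGFP livers, replicate 1 had the highest level of 6 genes, and replicate 3 was among the 2 highest for 8. The summed level of the 10 genes was 1693, 1430.2, 1445 and 1488 CPM in the Lpcat3 livers, against 1939, 1663, 1873 and 1598 CPM in the eGFP livers. Lpcat3 replicate 1 thus lay above 2 of the eGFP livers. Ctsc had another order from Ctss and Lgmn within the Lpcat3 group: Lpcat3 replicate 3 was the lowest of the 8 for Ctss and Lgmn and the highest of its group for Ctsc.

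**Figure D3:**
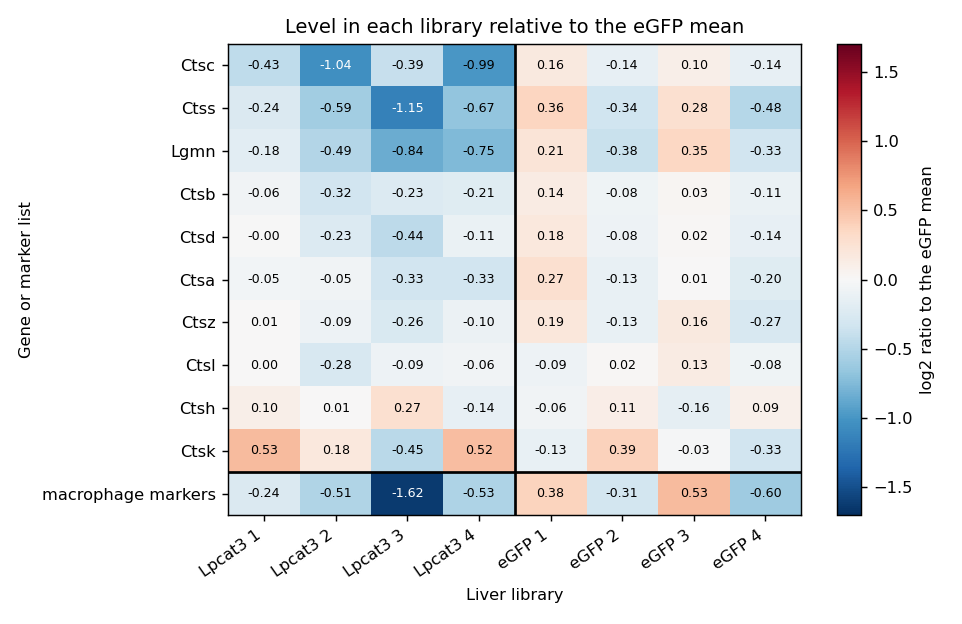
Log2 ratio of each protease gene to its eGFP mean in every library (columns, Lpcat3 then eGFP), with the mean of 18 macrophage markers in the bottom row; blue is lower and red higher. Lpcat3 replicate 3 stands at -1.15 for Ctss, -0.84 for Lgmn and -1.62 for the macrophage markers, but at -0.39 for Ctsc.

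Macrophages are rich in lysosomal proteases, so macrophage markers were read beside them. All 18 of 18 markers listed had a lower mean in the Lpcat3 livers, with a median log2 fold change of -0.68, but edgeR called 0 and the groups overlapped for every one. At an unadjusted p under 0.05 there were 10. Their summed level was 391 to 639.6 CPM in Lpcat3 livers and 571 to 1038 CPM in eGFP livers, and none was at 0. Adgre1, which encodes F4/80, was at 28.5 ± 5.96 CPM in Lpcat3 livers and 55.4 ± 21.8 CPM in eGFP livers (SD, n = 4 each), and Cybb, the NADPH oxidase subunit of phagocytes, at 41.2 ± 6.31 CPM in Lpcat3 livers and 67.0 ± 18.6 CPM in eGFP livers. The mean log2 level of the list, relative to the eGFP mean, was -0.24, -0.51, -1.62 and -0.53 in the Lpcat3 livers, against 0.38, -0.31, 0.53 and -0.60 in the eGFP livers. Thus eGFP replicate 4 was lower than 3 of the 4 Lpcat3 livers. By code the libraries did not overlap. Codes 1290 and 1317 ran from -0.31 to 0.53, and codes 1344 and 1345 from -1.62 to -0.51. These codes are divided unevenly between the groups, and their part in the marker difference was not tested. The part of macrophage number or content in the protease differences was not tested.

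Each protease was then set against that marker mean over the 8 libraries, with differences between groups and between codes left in. Like the marker mean, Ctss, Ctsd and Ctsb were higher in every library of codes 1290 and 1317 than in any of codes 1344 and 1345. The other members overlapped between these code pairs. The permutations ran over all 8 libraries without regard to group or code, so the part of either in these relations was not tested. Of the 10 relations, 7 passed at an adjusted p of 0.05 for Pearson's r, by an exact permutation test over the 40320 pairings with Benjamini-Hochberg adjustment over the 10. By Pearson's r, Ctss followed the markers most closely (r = 0.97, exact p = 0.000521, adjusted p = 0.00521; rho = 0.90, exact p = 0.00456, adjusted p = 0.0152). Lgmn had r = 0.91 (exact p = 0.00114, adjusted p = 0.00570) and rho = 0.86 (exact p = 0.0107, adjusted p = 0.0214). Ctsd had r = 0.92 (exact p = 0.00246, adjusted p = 0.00719) and rho = 0.90 (exact p = 0.00456, adjusted p = 0.0152). Ctsz had r = 0.88 (exact p = 0.00288, adjusted p = 0.00719) and rho = 0.88 (exact p = 0.00724, adjusted p = 0.0181).

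Pearson's r was lower for the other members, although Ctsa had the highest rho of the 10. Ctsa had r = 0.79 (exact p = 0.0192, adjusted p = 0.0385) and rho = 0.93 (exact p = 0.00223, adjusted p = 0.0152), and Ctsb r = 0.76 (exact p = 0.0287, adjusted p = 0.0410) and rho = 0.81 (exact p = 0.0218, adjusted p = 0.0363). Ctsh ran the other way with r = -0.76 (exact p = 0.0276, adjusted p = 0.0410), but its rho of -0.52 did not pass (exact p = 0.197, adjusted p = 0.246). The relation did not pass for Ctsc (r = 0.47, exact p = 0.251, adjusted p = 0.303; rho = 0.52, exact p = 0.197, adjusted p = 0.246). It did not pass for Ctsl (r = 0.43, exact p = 0.273, adjusted p = 0.303; rho = 0.40, exact p = 0.327, adjusted p = 0.363) or Ctsk (r = 0.28, exact p = 0.521, adjusted p = 0.521; rho = 0.36, exact p = 0.389, adjusted p = 0.389).

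The libraries farthest from the median of the marker mean were Lpcat3 replicate 3 and eGFP replicate 3. Without them r was 0.97 for Ctss, 0.94 for Ctsd, 0.91 for Ctsz, 0.90 for Ctsa, 0.87 for Lgmn, 0.86 for Ctsb and 0.64 for Ctsc. For Ctsl it was 0.17 and for Ctsk -0.18. For Ctsh it was -0.16, so that relation rests on those 2 libraries. With library totals as the scaling Ctsh had r = 0.02 and Ctsl r = 0.78, so the relation of these genes also depends on the scaling. No r was computed within a group or a pair of codes, each of which has 4 libraries.

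**Figure D4:**
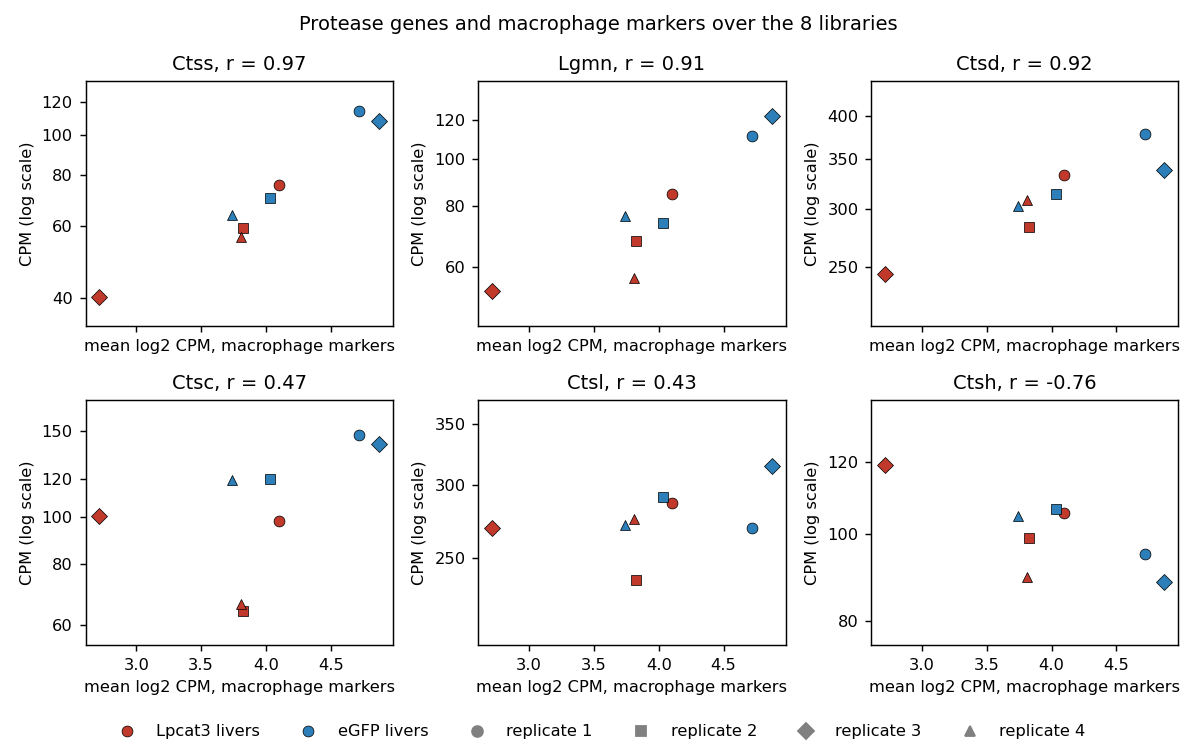
CPM (log scale) of 6 protease genes against the mean log2 CPM of 18 macrophage markers, 1 point per library, with colour for the group and shape for the replicate. Ctss, Lgmn and Ctsd are higher in the libraries with more marker RNA (r = 0.97, 0.91 and 0.92), while for Ctsc all 4 Lpcat3 libraries lie below the eGFP libraries.

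The same was done, after the data were seen, for all 10 lists of cell type markers, 100 relations in all. Ctsc had its highest r with the endothelial markers (r = 0.87, exact p = 0.00461, adjusted p over the 100 = 0.0384; rho = 0.86, exact p = 0.0107, adjusted p = 0.0765). Without the 2 libraries farthest from the median of those markers r was 0.72. Ctsb also stood highest with the endothelial markers (r = 0.93, exact p = 0.00141, adjusted p = 0.0332; rho = 0.93, exact p = 0.00223, adjusted p = 0.0744), and r was 0.84 without the 2 farthest libraries. Ctsh was highest with the hepatocyte markers (r = 0.87, exact p = 0.00632, adjusted p = 0.0441; rho = 0.79, exact p = 0.0279, adjusted p = 0.127), and r was 0.57 without the 2 farthest. Adjusted over the 100 relations, 15 passed for r and 0 for rho. Of the relations with the macrophage markers, those of Ctss, Lgmn, Ctsd and Ctsz still passed for r. Those of Ctsa (adjusted p = 0.0717), Ctsb and Ctsh (0.0810 each) no longer did.

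The list of resident macrophages gave other values from the macrophage list. With the Kupffer cell markers r was -0.20 for Ctss (exact p = 0.628, adjusted p = 0.714; rho = -0.07, exact p = 0.882, adjusted p = 0.948), and it was 0.70 without the 2 farthest libraries, Lpcat3 replicate 3 and eGFP replicate 4. For Lgmn it was -0.04 (exact p = 0.929, adjusted p = 0.967; rho = -0.10, exact p = 0.840, adjusted p = 0.923), and 0.69 without those libraries. For Ctsc it was 0.58 (exact p = 0.131, adjusted p = 0.235; rho = 0.43, exact p = 0.299, adjusted p = 0.434), and 0.89 without those libraries. That last value is above the 0.72 of Ctsc with the endothelial markers, for which other libraries were left out. Ctss ran against the hepatocyte markers (r = -0.91, exact p = 0.00451, adjusted p = 0.0384; rho = -0.71, exact p = 0.0576, adjusted p = 0.175), with r = -0.80 without the 2 farthest libraries. Ctsz did so too (r = -0.88, exact p = 0.00330, adjusted p = 0.0384; rho = -0.83, exact p = 0.0154, adjusted p = 0.103), with r = -0.90 without them. Ctsz had its highest r with the dendritic cell markers (r = 0.89, exact p = 0.00367, adjusted p = 0.0384; rho = 0.76, exact p = 0.0368, adjusted p = 0.147), which was 0.83 without the 2 farthest libraries. Ctsa had its highest with the B and plasma cell markers (r = 0.82, exact p = 0.0131, adjusted p = 0.0575; rho = 0.86, exact p = 0.0107, adjusted p = 0.0765), which was 0.54 without the 2 farthest. High r was thus not particular to the macrophage list for Ctss, Lgmn and Ctsd. With the B and plasma cell markers they had r = 0.92, 0.90 and 0.89 (exact test, adjusted p = 0.0332, 0.0332 and 0.0384). Their rho was 0.88, 0.93 and 0.74, and r without the 2 farthest libraries was 0.74, 0.84 and 0.56. Ctsd also had r = 0.88 with the dendritic cell markers (adjusted p = 0.0441), and 0.46 without the 2 farthest.

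All 8 of 8 endothelial markers had lower means in Lpcat3 livers (median log2 fold change -0.21, 0 called), summing to 407 to 499 CPM in Lpcat3 livers and 491 to 544 CPM in eGFP livers. Cdh5, which encodes the endothelial junction protein VE-cadherin, was at 48.6 ± 5.91 CPM in Lpcat3 livers and 64.0 ± 3.95 CPM in eGFP livers (SD, n = 4 each) without overlap. Pecam1, another endothelial junction gene, was at 27.3 ± 4.30 CPM in Lpcat3 livers and 34.4 ± 3.24 CPM in eGFP livers. Their part in the Ctsc difference was not tested.

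For each protease, the 2 genes with the most similar pattern over the 8 libraries were sought among 9864 genes with at least 5 CPM. Taking the highest of so many gives large r by selection, so these are a description. Nearest to Ctss were Cd68, a lysosomal glycoprotein of macrophages (r = 0.99), and Slfn2 (r = 0.99). Nearest to Lgmn were the chemokine Cxcl16 (r = 0.998) and Mpeg1, a pore-forming protein of macrophages (r = 0.99). Mpeg1 was at 183 ± 32.6 CPM in Lpcat3 livers and 273 ± 74.1 CPM in eGFP livers (SD, n = 4 each), and Cd68 at 18.5 ± 4.2 CPM in Lpcat3 livers and 28.5 ± 7.28 CPM in eGFP livers. Ctsc was nearest to Lrrc8c, a subunit of volume-regulated anion channels, and to Cdh5 (r = 0.96 each).

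Ctsb lay nearest to the transcription factor Maf (r = 0.99) and the ephrin Efnb1 (r = 0.98), and Ctsa to the glycolipid transfer protein Gltp (r = 0.98) and the lysosomal sulfamidase Sgsh (r = 0.96). Ctsd lay nearest to Tbc1d31 and the p53 target Ccng1 (r = 0.99 each), and Ctsz to the transporter Abcc5 and the cytokine receptor chain Il10rb (r = 0.98 each). Ctsl lay nearest to the kinase Ulk3 (r = 0.98) and the reticulophagy receptor Retreg1 (r = 0.97), and Ctsh to Zwint (r = 0.99) and Rnft1 (r = 0.98). Ctsk had the lowest values, 0.92 with Nlk and 0.90 with Afg1l.

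The sequences before the starts of 4 of these genes are shown because they hold the motifs searched, and because Ctss and Ctsc differed most between the groups while Ctsd and Ctsa differed little. They come from RefSeq (GRCm38.p6, not the authors' build), which gave windows of 300 bases for 8 of the 10 genes (not Ctsb and Ctsh). Each is printed 5′ to 3′ for 250 bases before the start and 20 after it. Capitals mark CACGTG, the core of the CLEAR element through which TFEB acts on lysosomal genes, its longer form TCACGTGA, or ACTTCCTC, the reverse complement of GAGGAAGT, a site type of the myeloid factor PU.1.
Ctsd, chr7:142387808-142388077, minus strand: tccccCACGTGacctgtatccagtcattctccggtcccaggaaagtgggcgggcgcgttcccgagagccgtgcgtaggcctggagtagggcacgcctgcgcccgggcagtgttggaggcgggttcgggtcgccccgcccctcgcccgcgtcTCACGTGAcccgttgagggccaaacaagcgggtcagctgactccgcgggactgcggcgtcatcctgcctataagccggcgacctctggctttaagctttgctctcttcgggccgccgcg
Ctsa, chr2:164833523-164833792, plus strand: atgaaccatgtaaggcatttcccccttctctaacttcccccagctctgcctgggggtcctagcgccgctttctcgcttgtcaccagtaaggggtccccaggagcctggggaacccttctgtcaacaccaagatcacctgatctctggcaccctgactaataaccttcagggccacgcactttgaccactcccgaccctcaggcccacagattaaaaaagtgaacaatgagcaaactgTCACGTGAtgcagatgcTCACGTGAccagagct
Ctss, chr3:95526536-95526805, plus strand: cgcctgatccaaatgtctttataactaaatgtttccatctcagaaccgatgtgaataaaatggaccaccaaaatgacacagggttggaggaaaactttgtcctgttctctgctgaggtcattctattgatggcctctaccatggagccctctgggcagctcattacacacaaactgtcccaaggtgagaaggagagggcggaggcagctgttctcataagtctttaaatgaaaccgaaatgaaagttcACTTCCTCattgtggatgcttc
Ctsc, chr7:88277835-88278104, plus strand: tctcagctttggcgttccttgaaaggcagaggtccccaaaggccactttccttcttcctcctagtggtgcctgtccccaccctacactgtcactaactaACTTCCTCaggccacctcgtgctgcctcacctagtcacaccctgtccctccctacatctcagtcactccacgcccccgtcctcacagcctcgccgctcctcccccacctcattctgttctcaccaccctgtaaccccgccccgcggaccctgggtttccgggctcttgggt

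On both strands, CACGTG stood in a window of 4 of the 8 genes (Ctsa, Ctsd, Ctsl and Lgmn), against 8.09% of 27025 genes in the table. TCACGTGA, which contains CACGTG, stood in Ctsa and Ctsd, against 1.125% of genes, and Ctsa held 2 copies at its start. GAGGAAGT or its complement stood in Ctsc and Ctss, against 3.69% of genes. Lgmn, whose log2 difference between the groups was the next largest (-0.54), held CACGTG but not GAGGAAGT. The windows of Lgmn and Ctsl are not printed, although they hold a motif searched. The Ctsz and Ctsk windows held none of these letters. A match is a description of the sequence and not evidence that a factor binds there.

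Levels between the genes were compared per kilobase of annotated exons, from GENCODE M21. In the eGFP livers Ctsd stood first at 157 ± 15.6 CPM per kb, followed by Ctsb at 106 ± 8.74, Ctsz at 86.3 ± 13.2, Ctss at 65.7 ± 19.0 and Ctsh at 61.0 ± 5.22 CPM per kb (SD, n = 4 each). Lgmn followed at 47.5 ± 12.1, Ctsl at 46.4 ± 3.43, Ctsa at 27.9 ± 4.17, Ctsc at 24.7 ± 2.72 and Ctsk at 0.825 ± 0.182 CPM per kb. Ctsd was above Ctsb, and Ctsb above Ctsz, in 8 of 8 libraries of both groups. Ctss was above Ctsh in only 2 of the 8 libraries and Lgmn above Ctsl in 2, so these neighbours did not keep an order. In the Lpcat3 livers Ctss was at 42.6 ± 10.6 CPM per kb and Ctsh at 63.8 ± 7.70 CPM per kb. The choice of length matters for Ctsb and Ctsl, whose annotated exons are long: per kilobase of coding sequence in eGFP livers Ctsb came first at 497 ± 40.7, then Ctsl at 286 ± 21.1 and Ctsd at 271 ± 27.0 CPM per kb.

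**Figure D5:**
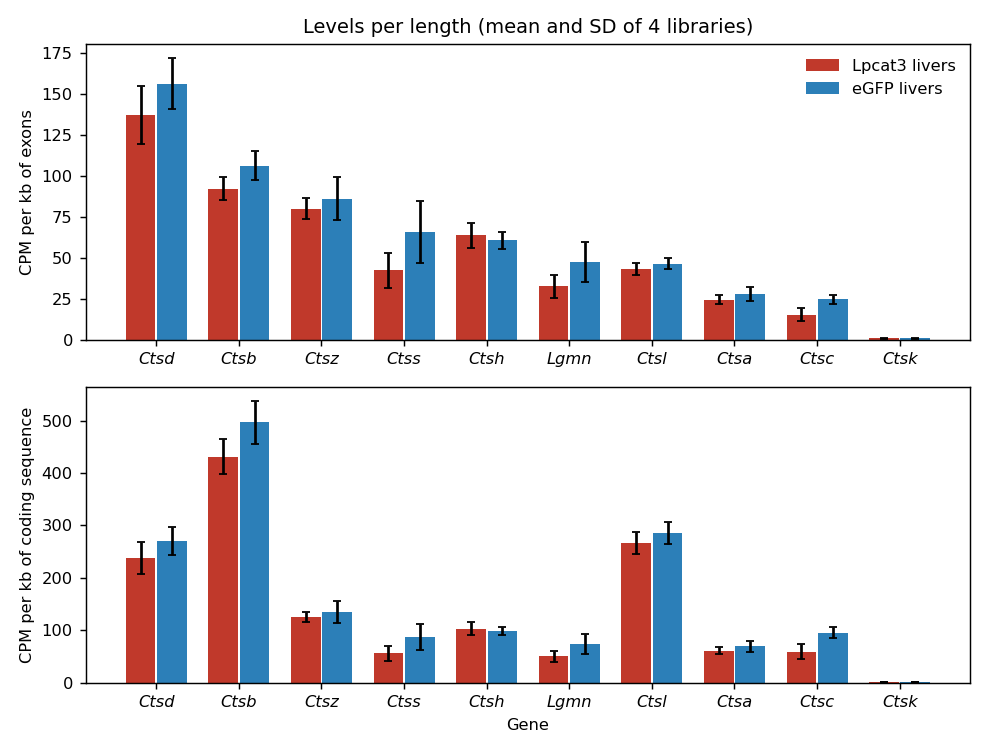
Mean level of each protease gene in CPM per kb of annotated exons (top) and per kb of coding sequence (bottom) in Lpcat3 and eGFP livers, with bars from 0 and the SD of 4 libraries. Ctsd leads per kb of exons at 157 CPM per kb in eGFP livers, Ctsb leads per kb of coding sequence at 497, and Ctsk is near 0 in both.

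The proteins that act with these proteases were read from lists of the same pathway. Of 19 cathepsin inhibitors 9 were tested, with 8 lower and 1 higher in Lpcat3 livers, a median log2 fold change of -0.32 and 0 called. Their summed level was not lower, at 1386 to 1792 CPM in Lpcat3 livers and 1316 to 1719 CPM in eGFP livers. Serpina3g, an inhibitor of cysteine cathepsins in haematopoietic cells, was at 10.1 ± 2.76 CPM in Lpcat3 livers and 16 ± 5.37 CPM in eGFP livers (SD, n = 4 each). Cstb, the intracellular inhibitor stefin B, was at 18.1 ± 1.99 CPM in Lpcat3 livers and 23.0 ± 6.13 CPM in eGFP livers, and Ctla2b at 1.73 ± 0.641 CPM in Lpcat3 livers and 2.53 ± 0.399 CPM in eGFP livers. All 3 overlapped between the groups.

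Of 19 other lysosomal proteases 10 were tested, with 8 lower, 2 higher, a median of -0.10 and 0 called. Tpp1, a tripeptidyl peptidase, was at 114 ± 3.85 CPM in Lpcat3 livers and 123 ± 5.35 CPM in eGFP livers (SD, n = 4 each), a difference of -0.11 on the log2 scale (edgeR adjusted p = 0.631). Prcp was at 10.2 ± 1.96 CPM in Lpcat3 livers and 12.9 ± 2.80 CPM in eGFP livers, and the papain-type protease Ctsf at 15.5 ± 2.09 CPM in Lpcat3 livers and 13.8 ± 2.50 CPM in eGFP livers. The placental cathepsins Ctsq, Ctsr, Ctsm, Cts3, Cts6, Cts7 and Cts8 were at 0 in every library.

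Of the 16 genes of sorting and partners, 12 were lower and 4 higher (median -0.06, 0 called). M6pr, a mannose 6-phosphate receptor, was at 83.9 ± 5.76 CPM in Lpcat3 livers and 91.6 ± 5.66 CPM in eGFP livers, Scarb2, a lysosomal membrane protein that carries glucocerebrosidase, at 273 ± 30.5 CPM in Lpcat3 livers and 240.2 ± 24.5 CPM in eGFP livers, and the sorting receptor Sorl1 at 9.99 ± 3.13 CPM in Lpcat3 livers and 14.1 ± 4.87 CPM in eGFP livers. Among 27 of 28 listed lysosomal hydrolases other than proteases that were tested, 18 were lower and 9 higher (median -0.05, 0 called). Gla, an alpha-galactosidase, was at 5.09 ± 0.399 CPM in Lpcat3 livers and 7.14 ± 1.49 CPM in eGFP livers and Galc, a galactosylceramidase, at 11.2 ± 0.761 CPM in Lpcat3 livers and 13.6 ± 1.11 CPM in eGFP livers, both without overlap. Hyal1, a hyaluronidase, was at 84.7 ± 10.3 CPM in Lpcat3 livers and 65.9 ± 13.1 CPM in eGFP livers.

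Lysosomal membrane and proton pump genes were 15 lower and 10 higher of 25 tested among 26 listed, with a median of -0.04 and 0 called. Atp6v1d, a subunit of the proton pump, was at 25.3 ± 0.613 CPM in Lpcat3 livers and 21.04 ± 1.09 CPM in eGFP livers without overlap, and the lysosomal channel gene Mcoln1 was at 31.2 ± 0.617 CPM in Lpcat3 livers and 27.4 ± 2.29 CPM in eGFP livers without overlap (edgeR adjusted p = 0.564 and 0.579). Of the transcription factors of the TFEB family all 4 were lower, with a median of -0.23 and 0 called. Tfec, the member typical of macrophages, was at 3.01 ± 0.469 CPM in Lpcat3 livers and 4.16 ± 0.427 CPM in eGFP livers, Mitf at 13.7 ± 0.996 CPM in Lpcat3 livers and 15.6 ± 1.31 CPM in eGFP livers, and Tfe3 at 22.9 ± 3.04 CPM in Lpcat3 livers and 27.5 ± 6.42 CPM in eGFP livers.

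Genes listed for MHC class II loading, the pathway in which Ctss cuts the invariant chain, had lower means in 9 of 9 cases (median -0.61, 0 called). Ifi30, a lysosomal thiol reductase, was at 19.6 ± 2.28 CPM in Lpcat3 livers and 28.2 ± 6.82 CPM in eGFP livers, H2-DMb2 at 1.73 ± 0.294 CPM in Lpcat3 livers and 2.47 ± 0.483 CPM in eGFP livers, and H2-DMa at 7.76 ± 0.826 CPM in Lpcat3 livers and 10.8 ± 3.13 CPM in eGFP livers (SD, n = 4 each). Of 9 granule proteases that Ctsc activates 1 was tested (lower, 0 called), and Ctsg, Mcpt4 and Cma1 were at 0 in every library.

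Markers of the other cell types differed in size and direction. Kupffer cell markers, of the resident macrophages, were lower in 6 of 8 cases (median -0.27), summing to 145 to 245 CPM in Lpcat3 livers and 225 to 275 CPM in eGFP livers, with Cd5l at 39.0 ± 8.34 CPM in Lpcat3 livers and 71.9 ± 22.3 CPM in eGFP livers and Vsig4 at 30.7 ± 7.70 CPM in Lpcat3 livers and 43.0 ± 4.23 CPM in eGFP livers. Dendritic cell markers were lower in 5 of 8 (median -0.28; 26.5 to 29.3 CPM in Lpcat3 livers, 30.3 to 35.6 CPM in eGFP livers), with Clec9a at 8.64 ± 1.05 CPM in Lpcat3 livers and 11.5 ± 1.96 CPM in eGFP livers and Zbtb46 at 13.4 ± 1.59 CPM in Lpcat3 livers and 14.8 ± 1.20 CPM in eGFP livers. Neutrophil markers were lower in 4 of 4 tested of 8 (median -0.81; 4.89 to 8.48 CPM in Lpcat3 livers, 7.48 to 20.8 CPM in eGFP livers), with Csf3r at 5.13 ± 0.862 CPM in Lpcat3 livers and 8.20 ± 3.33 CPM in eGFP livers and S100a8 at 0.912 ± 0.292 CPM in Lpcat3 livers and 1.76 ± 1.28 CPM in eGFP livers. T and NK cell markers were lower in 5 of 7 tested of 9 (median -0.67; 4.42 to 5.66 CPM in Lpcat3 livers, 3.92 to 9.36 CPM in eGFP livers), with Prf1 at 0.801 ± 0.179 CPM in Lpcat3 livers and 1.41 ± 0.411 CPM in eGFP livers and Cd3e at 0.774 ± 0.228 CPM in Lpcat3 livers and 1.23 ± 0.625 CPM in eGFP livers. B and plasma cell markers were lower in 5 of 5 tested of 6 (median -0.42; 2.40 to 3.87 CPM in Lpcat3 livers, 3.06 to 5.07 CPM in eGFP livers).

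Stellate cell and fibroblast markers were lower in 7 of 10 (median -0.07), summing to 480.3 to 799.9 CPM in Lpcat3 livers and 648 to 788 CPM in eGFP livers, with Pdgfrb at 22.2 ± 5.47 CPM in Lpcat3 livers and 27.8 ± 3.79 CPM in eGFP livers and Reln at 206 ± 31.5 CPM in Lpcat3 livers and 192 ± 18.2 CPM in eGFP livers. Cholangiocyte markers were higher in 5 of 6 (median 0.63; 39.6 to 128 CPM in Lpcat3 livers, 38.2 to 86.5 CPM in eGFP livers), with Epcam at 3.94 ± 1.95 CPM in Lpcat3 livers and 2.10 ± 0.642 CPM in eGFP livers and Krt7 at 1.47 ± 0.682 CPM in Lpcat3 livers and 0.800 ± 0.299 CPM in eGFP livers. Hepatocyte markers were higher in 9 of 10 (median 0.15), with Cyp2e1 at 8145 ± 1717 CPM in Lpcat3 livers and 5699.9 ± 1853 CPM in eGFP livers and Tat at 1089.5 ± 445 CPM in Lpcat3 livers and 577 ± 234 CPM in eGFP livers. In these lists edgeR called 0 members and no marker was at 0 in every library.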

How the data were processed

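RNA sequencing counts of 8 mouse liver libraries were used. The authors deposited 1 table of raw counts, reads per NCBI gene and library, not normalized. The submitters' processing notes name bcl2fastq 2.20, DESeq2 and build GRCm39, while the aligner, counting program and strand use stay unstated in the sources used here. Columns were joined by the codes in the titles, and symbols came from RefSeq (39397 of 40838 rows, 99.5% of counts). Genes were filtered with filterByExpr (minimum count 10), scaled by TMM and compared with edgeR 4.0.16 (glmQLFit with robust estimation, glmQLFTest, R 4.3.3), with two-sided p-values adjusted by Benjamini-Hochberg over 17438 genes and called at 0.05. An SE is the fold change divided by the root of its F statistic. Log2 CPM used a prior count of 2. The steps were tested on simulated data. Members and lists were chosen with earlier results of these data known. Named genes are all members, and of each list up to 3 (pathways) or 2 (cell types) with the smallest p and at least 1 CPM. Alternatives were other scalings and filters, DESeq2 1.42.0, limma-voom (limma 3.58.1), left-out libraries, a replicate block and code terms.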

Additional observations from a re-analysis of the deposited data

Results flagged for a closer look

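Of the 2 values that stood far from the other libraries of their group, neither was a member of the protease family. Atp6v1d was at 26.2 CPM in Lpcat3 replicate 4, against 24.9 to 25.04 CPM in the other Lpcat3 livers. S100a8, a neutrophil marker, was at 0.479 CPM in Lpcat3 replicate 3, against 1.02 to 1.119 CPM in the other Lpcat3 livers. Chance flags about 1 in 20 groups, and 100 groups of 4 libraries were examined.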

How the results depend on the processing

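The count of genes called by edgeR, 1 as reported, was 3 with library totals, 2 without robust estimation and 0 with no low-count filter, with both libraries numbered 3 left out, under the replicate block and under terms for the code division or for every code number. It ran from 0 to 7 over the 8 fits that left out 1 library, with 7 without Lpcat3 replicate 1. DESeq2 called 51 genes, 55 when run on every gene with a count and 48 with independent filtering set for 0.1; the last 2 settings were chosen after seeing the data. Among the proteases, 1 (Ctsc) was called by DESeq2 and 1 when it was run on every gene (adjusted p = 0.0488), and 0 in every other fit run. Of 210 protease fold changes under 21 alternatives, 8 turned and 2, both Ctsc, passed the threshold. The other 200 kept their direction and stayed uncalled, which says little since no protease was called as reported. Of the 210, 49 turned or moved by over 1.5 times, with 0 for Ctsc, 3 each for Ctsa, Ctsb, Ctss and Lgmn, 6 each for Ctsd and Ctsl, 8 each for Ctsh and Ctsz and 9 for Ctsk. The Ctsh log2 fold change was -0.0529 with library totals, -0.0585 with both libraries numbered 3 left out, -0.0580 with a term for every code number, and -0.00954 to 0.129 on leaving out 1 library. That of Ctsz was 0.000161 with both libraries numbered 3 left out, 0.0279 with the code division and 0.0594 with every code number, and that of Ctsl 0.0291 with every code number. The causes were not tested. Leaving out 1 library gave -0.79 to -0.58 for Ctsc, -0.78 to -0.48 for Ctss and -0.69 to -0.40 for Lgmn. With both libraries numbered 3 left out, Ctss was at -0.38 and Lgmn at -0.32, and with a term for every code number both were at -0.25. Ctsa was at -0.08 without eGFP replicate 1. Ctsz was at -0.04 without eGFP replicate 1, -0.05 without eGFP replicate 3, -0.06 without Lpcat3 replicate 3 and -0.19 without eGFP replicate 4. Ctsl was at -0.05 without Lpcat3 replicate 2 or without eGFP replicate 3. Ctsk was at 0.42 without Lpcat3 replicate 3, 0.41 without eGFP replicate 2, 0.15 without Lpcat3 replicate 1 or 4 and 0.16 without eGFP replicate 4. Relations with macrophage markers that passed fell to 3 of 10 with both libraries numbered 3 left out, where Ctsk had r = -0.18 and only 6 libraries remain; with library totals Ctsh had r = 0.0188. The deviations of same-numbered libraries from their group means had correlations of 0.28, -0.07, -0.40 and -0.12. The eGFP library best correlated with Lpcat3 replicates 1, 2, 3 and 4 was replicate 1, 1, 4 and 3 in turn, the same number only for replicate 1. No test was made of these values, so they do not settle whether the numbers mark a pairing. The main fit used no pairing. With library totals the median of all genes was -0.13. Depth limits Ctsk most, at 19 to 45 counts per library.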
